A study of Mus musculus with 2 samples.

Results

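The cytosolic ribosomal protein genes are the protein-coding genes that encode the proteins of the cytoplasmic ribosome. They were chosen by symbol (Rpl or Rps, a number and at most 1 further letter) with Rplp0, Rplp1, Rplp2 and Rpsa added. The rule found 81 of 21883 protein-coding genes, 50 of them of the large and 31 of the small subunit. Open chromatin was measured by ATAC-seq, in which Tn5 transposase cuts accessible DNA and inserts adapters, in nuclei of hepatic stellate cells, pericytes of the liver that store vitamin A. There were 2 samples of 1 group, replicates A and B. Conditions were therefore not compared, and every value is a description. Both came from healthy chow-fed C57BL6/JBomTac mice with an mCherry-Rpl10a gene at the Rosa26 locus, the allele Gt(ROSA)26Sortm1(mCherry-Rpl10a-Flop)Kra, and the transgene Tg(Lrat-cre)1Rshw, in which Cre follows the Lrat gene of retinoid-storing cells. Nuclei were sorted on that fluorescent fusion of Rpl10a, itself the product of a ribosomal protein gene. The labels do not say whether A and B came from separate animals or how many animals were pooled.

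Each replicate has 1 deposited peak list, with 36577 entries in A and 28794 in B. No read counts were analysed here, so the depth behind each peak is unknown. A replicated peak is an entry of A that an entry of B overlaps by at least 1 bp, and there were 23452. In nuclei taken in bulk, fewer cells with an open site and less opening per cell cannot be told apart. The stellate cell markers examined numbered 8, among them Lrat, Des, Pdgfrb and Reln. All 8 had a replicated peak within 1 kb of a gene end, against 41.9% of all protein-coding genes. Of 8 markers of other liver cells, 0 did. These were Alb and Apoa1 of hepatocytes, Stab2 of endothelium, Krt19 and Epcam of bile ducts, Clec4f and Adgre1 of macrophages and Ptprc of leukocytes. Apoa1 had an entry there in A alone. Peak names in the list of B start with the word Oil, although the sample is labelled as a chow-fed control, and it was treated as labelled.

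A ribosome is built from RNA and about as many different proteins as there are genes here, and the proteins are made in near-equal numbers in every growing cell. Their genes are short and very actively transcribed. Many of them begin transcription at a C followed by a run of pyrimidines, the start of the terminal oligopyrimidine tract through which the mTOR pathway controls translation. Several carry small nucleolar RNAs in their introns, and many have left processed pseudogenes in the genome.

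The sequences below are the 150 bases just upstream of the first listed transcription start, 5′ to 3′ on the strand of the gene. They were taken from RefSeq promoter entries of the GRCm38.p6 build, which mm10 shares. Capitals mark every match, on either strand, to 7 short patterns: the ETS core CCGGAAG, the YY1 core AAGATGG, the TATA box TATAAA, the GC box GGGCGG, the CCAAT box CCAAT, the E-box CACGTG and the NRF1 core GCATGCG. The first 3 belong to members with some of the strongest peaks, and Rpl10a is the gene whose product was used for the sort.
Rpl15 (chr14:18270987-18271136, - strand): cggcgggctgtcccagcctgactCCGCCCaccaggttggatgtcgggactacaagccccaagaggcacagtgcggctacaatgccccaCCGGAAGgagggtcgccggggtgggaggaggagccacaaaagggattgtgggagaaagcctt
Rpl34 (chr3:130730399-130730548, - strand): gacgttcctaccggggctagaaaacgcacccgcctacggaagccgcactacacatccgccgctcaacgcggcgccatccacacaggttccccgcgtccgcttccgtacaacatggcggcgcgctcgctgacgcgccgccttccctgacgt
Rps24 (chr14:24490528-24490677, + strand): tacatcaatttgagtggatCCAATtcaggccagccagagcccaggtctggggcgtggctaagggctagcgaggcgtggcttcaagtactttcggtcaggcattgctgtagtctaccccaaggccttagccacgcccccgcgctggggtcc
Rpl10a (chr17:28328321-28328470, + strand): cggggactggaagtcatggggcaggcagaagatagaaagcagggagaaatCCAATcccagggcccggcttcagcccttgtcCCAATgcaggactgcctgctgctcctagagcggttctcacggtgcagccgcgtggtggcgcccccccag
The next 3 lie at starts inside the gene span, where a replicated peak was found although neither end of the span had any.
Rps2 (chr17:24719913-24720062, + strand): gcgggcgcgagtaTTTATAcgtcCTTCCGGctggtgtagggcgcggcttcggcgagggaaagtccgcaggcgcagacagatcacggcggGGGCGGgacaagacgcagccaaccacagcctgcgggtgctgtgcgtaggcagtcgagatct
Rpl22 (chr4:152325576-152325725, + strand): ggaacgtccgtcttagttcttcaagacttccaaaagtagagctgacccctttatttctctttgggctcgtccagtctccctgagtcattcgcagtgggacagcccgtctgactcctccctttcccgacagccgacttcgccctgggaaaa
Rpl19 (chr11:98026560-98026709, + strand): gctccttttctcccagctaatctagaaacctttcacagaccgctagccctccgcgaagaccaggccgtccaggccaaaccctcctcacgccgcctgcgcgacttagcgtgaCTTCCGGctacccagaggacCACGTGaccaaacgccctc
The last 5 belong to members with no replicated peak at either end or at the start. The first pair had an entry of A alone over these bases, and the other three had none in either list.
Rpl26 (chr11:68901416-68901565, + strand): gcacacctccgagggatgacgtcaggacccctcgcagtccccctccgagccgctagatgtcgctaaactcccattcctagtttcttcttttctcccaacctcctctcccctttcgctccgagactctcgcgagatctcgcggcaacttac
Rps4x (chrX:102189392-102189541, - strand): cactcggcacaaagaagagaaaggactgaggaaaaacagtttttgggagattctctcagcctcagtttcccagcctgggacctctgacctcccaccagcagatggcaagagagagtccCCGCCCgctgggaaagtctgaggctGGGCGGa
Rpl4 (chr9:64173237-64173386, + strand): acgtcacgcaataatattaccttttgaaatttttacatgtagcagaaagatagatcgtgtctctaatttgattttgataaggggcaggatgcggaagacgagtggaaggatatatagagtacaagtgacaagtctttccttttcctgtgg
Rpl32l (chr10:20208289-20208438, + strand): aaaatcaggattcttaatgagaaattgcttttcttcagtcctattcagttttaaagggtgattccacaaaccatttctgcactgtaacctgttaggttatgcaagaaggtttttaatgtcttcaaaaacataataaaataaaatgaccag
Rpl39l (chr16:10170078-10170227, + strand): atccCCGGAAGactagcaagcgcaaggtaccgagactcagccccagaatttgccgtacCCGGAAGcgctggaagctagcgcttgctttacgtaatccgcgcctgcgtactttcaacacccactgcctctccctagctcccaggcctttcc
Of these 12 stretches, an entry of A covered all 150 bases in Rpl15, Rpl34, Rps24, Rps2 and Rpl26, and 0 bases in Rpl4, Rpl32l and Rpl39l. Rpl4 and Rpl32l had the lowest G+C content of the 12, at 38.0% and 31.3%. Rpl39l held 2 matches to the ETS core without a peak. The 150 bases of Rpl34 held no match to any pattern, under a peak enriched 23.2-fold in A and 21.8-fold in B. Outside those bases, the same peak of Rpl34 held an E-box at −155 and a GC box at 42 from the start.

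Most ribosomal protein genes had an open site at an end of the gene in both replicates. A replicated peak lay within 1 kb of an end in 69 of the 81 (85.2%), against 41.9% of all protein-coding genes. In the list of A 74 had an entry there (background 47%), and in that of B 70 did (background 44.8%). Large-subunit genes had a replicated gene-end peak in 42 of 50 cases and small-subunit genes in 27 of 31. These genes are short, from 592 to 11774 bp with a median of 3175 bp, against a median of 17170 bp over all protein-coding genes. Among the 8795 protein-coding genes no longer than the longest of them, 31.1% had a replicated gene-end peak. The 14 members on chromosome 7, which holds more of them than any other chromosome, all had such a peak. So did all members on several other chromosomes, among them the 5 on chromosome 5. Shares of all protein-coding genes by chromosome were not taken.

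Other genes of protein synthesis and turnover were read the same way. Of 37 translation factor genes, which encode proteins that start, elongate or end translation, 34 had a replicated gene-end peak, and Eif3b, Eif3d and Eif4a2 did not. Of 34 ribosome biogenesis genes 31 did, the others being Pes1, Polr1a and Ubtf. Proteasome subunits had it in 33 of 39 genes and mitochondrial ribosomal proteins in 61 of 78. In the list for growth control of translation, 7 of 10 genes had it. Mtor, the kinase of the pathway, was enriched 21.0-fold in A and 16.4-fold in B. Larp1, which binds terminal oligopyrimidine tracts, Myc and Tsc2 were the genes without a replicated gene-end peak, and Larp1 had a replicated peak at a listed start inside its span. No count here was tested against another, and the background for each is the same 41.9%.

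**Figure D1:**
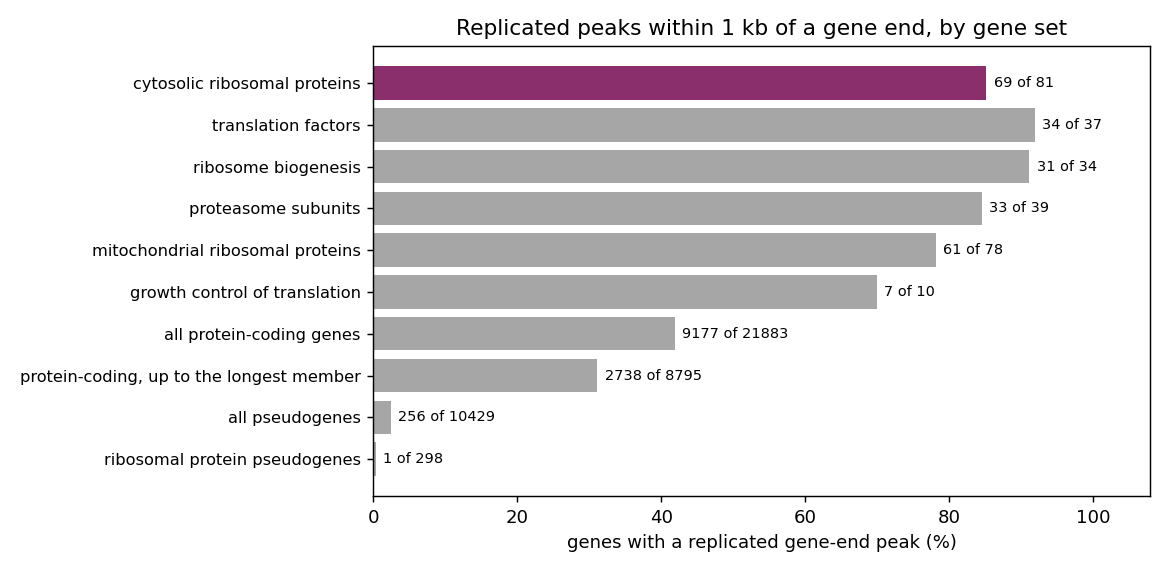
Bars give the percent of genes in each set with a replicated ATAC-seq peak within 1 kb of either end, with the counts at the right. The cytosolic ribosomal protein genes stand at 69 of 81, all protein-coding genes at 9177 of 21883 and ribosomal protein pseudogenes at 1 of 298.

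The lists also hold, for each entry, the fold enrichment of the authors' peak caller over its local background. Over the 69 members with a replicated gene-end peak, the best-ranked such peak had a median fold enrichment of 16.7 in A, with quartiles of 13.7 and 19.4. In B the median was 14.4, with quartiles of 11.6 and 17.7. The range was 5.28 to 26.1 in A and 6.55 to 23.3 in B. Over all 9177 genes with a replicated gene-end peak the medians were 15.2 and 13.7, inside the quartiles of the members. Members above those medians numbered 46 of 69 in A and 41 of 69 in B. Peaks were 295 bp wide at the median, against 293 bp over all such genes. Fold enrichment was higher in A than in B at 49 of the 69 (71.0%), against 66.8% of all such genes, and the 2 lists were not scaled to each other.

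Among the members with the best mean ranks of fold enrichment over both lists was Rpl15, a protein of the large subunit. Its peak at chr14:18270938-18271324 over the start was enriched 26.1-fold in A and 22.1-fold in B, with −log10 q of 82.5 and 62.6, and also lies at an end of Nkiras1. Rpl34 had 23.2 in A and 21.8 in B at chr3:130730241-130730588, again over the start. Both stood above the upper quartile of the members in both lists. Rpl28 had 21.6 in A and 19.4 in B, Rps21 with 20.4 and 19.9, and Rps26 with 19.9 and 20.1. Rps24, in which mutations cause Diamond-Blackfan anaemia, had 20.9 in A and 18.5 in B. Rpl30 had 19.4 and 19.1, and Rps3, a protein of the mRNA entry channel, had 19.2 and 19.1. All of these except Rpl30, which has no listed start, had the peak at the listed start.

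Rpl3l, the form of Rpl3 found in heart and skeletal muscle, also ranked among the 10 highest, with 23.1 in A and 21.2 in B, but this peak was not at its start. It lay at chr17:24736360-24736730, 217 bp beyond the termination end and at an end of Msrb1. No entry replicated at the start of Rpl3l.

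Among the 5 lowest of the 69 by mean rank were Rpl7, Rpl10a, Rpl35a and Rplp2. For Rpl7 the peak was enriched 5.28-fold in A and 9.75-fold in B and lay 821 bp beyond the end of the gene, at an end of Rdh10. Among the best-ranked peaks it was the one farthest from a gene end that the window of 1 kb still took. The next farthest, of Rpl38, lay 567 bp inside the gene. Just outside the window were the nearest peaks of Rpl22 at 1146 bp, Rps27l at 1238 bp and Rpl17 at 1392 bp, described below. Rpl35a had 11.0 and 7.97, and Rplp2 had 11.3 and 8.50.

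**Figure D2:**
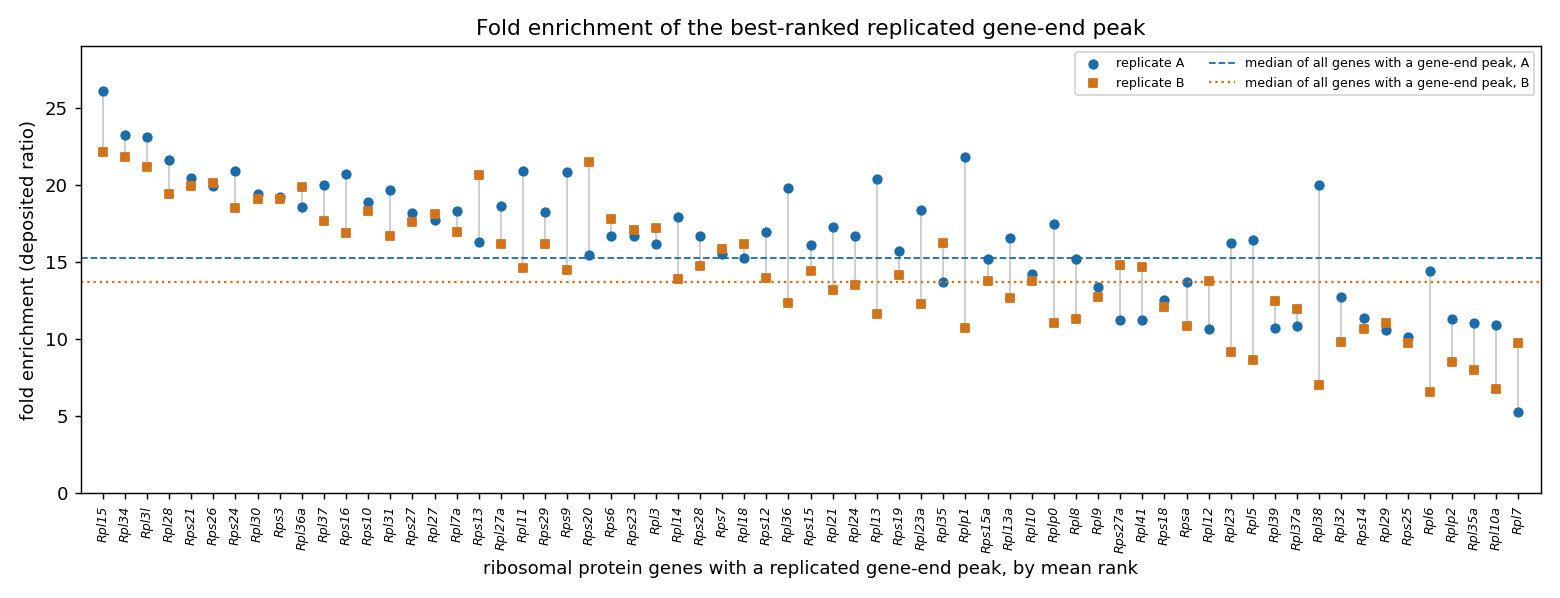
Each of 65 of the 69 genes has its deposited fold enrichment in A (circles) and B (squares) at its best-ranked replicated gene-end peak, ordered by mean rank, with dashed and dotted lines at the medians of all 9177 genes with such a peak. Values run from 26.1 to 5.28 in A, and Rpl38, Rpl6 and Rplp1 show wide gaps between the replicates.

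Rpl10a encodes the protein that carries mCherry in these mice. Its peak at chr17:28328336-28328580 was enriched 10.9-fold in A and 6.76-fold in B, with −log10 q of 18.2 and 7.15. Both fold enrichments lay under the lower quartile of the members, and only Rpl7 had a lower mean rank. The peak covered 135 of the 150 printed upstream bases in A and 78 in B, with summits 6 bp upstream and 12 bp downstream of the listed start. The mCherry-Rpl10a gene holds a further copy of Rpl10a sequence, and the sources used here do not give how reads from it were placed. Any effect of that copy on this peak was not tested.

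The replicates differed most at Rpl38, where the fold enrichment of A was 2.85 times the 7.01 of B. Next came Rpl6, with 14.4 in A and 6.55 in B, and Rplp1, with 21.8 and 10.7. The ratio of A to B was above 1.5 at 10 of the 69 (14.5%), against 10.2% of all genes with a replicated gene-end peak. Rpl38 is known for its part in the translation of Hox messages, and Rpl6 is a structural protein of the large subunit.

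Read by their place in the ribosome, the genes of the P stalk, where translation factors dock, all had a gene-end peak. Rplp0 was enriched 17.5-fold in A and 11.0-fold in B, Rplp1 had 21.8 and 10.7, and Rplp2 had 11.3 and 8.50, each of them higher in A. Rpl5 and Rpl11, which bind the 5S RNA and, outside the ribosome, Mdm2, both had a peak at the start. For Rpl5 it reached 16.4 in A and 8.63 in B, and for Rpl11 20.9 and 14.6. Near the peptidyl transferase centre, where the peptide bond forms, Rpl3 had 16.2 and 17.2, Rpl8 had 15.2 and 11.3, and Rpl10 had 14.2 and 13.8. Of 5 genes of the decoding and mRNA channel 4 had a gene-end peak, the other being Rps2, and of 3 genes of the mRNA exit and platform 3 did. Around the exit tunnel, through which the new chain leaves, 4 of 8 did. The others were Rpl4, Rpl17, Rpl19 and Rpl26, of which Rpl17 and Rpl19 had a replicated peak farther inside the gene. Over all 81 members the share with a replicated gene-end peak was 85.2%, and over all protein-coding genes it was 41.9%. The lists by place in the ribosome hold 8 genes or fewer, and no share was tested.

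A further 6 genes encode ribosomal or ribosome-bound proteins, or close relatives of them, under symbols outside the rule, among them Fau, Rack1, Rps3a1, Rpl7l1 and Rpl22l1. All 6 had a replicated gene-end peak, against 41.9% of all protein-coding genes, and that of Fau also lay at an end of Mrpl49. Rack1, a scaffold protein on the small subunit, was enriched 8.07-fold in A and 11.4-fold in B, and Rpl22l1 had 18.7 and 22.9. Rpl22l1, the paralogue of Rpl22, was above the upper quartile of the 69 members in B (17.7) and under it in A (19.4).

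No replicated gene-end peak was found at 12 members, among them Rps2, Rpl19, Rpl22, Rps27l, Rpl17, Rpl26, Rps4x, Rpl4, Rpl10l, Rpl32l and Rpl39l. They fall into different kinds by where their entries lie. In Rps2, Rpl19, Rpl22 and Rps27l a replicated peak lay at the listed start, which is inside the span given by the gene table. Rps27l, a paralogue of Rps27 induced by p53, had 23.1 in A and 22.3 in B at chr9:66945862-66946144, above the upper quartile of the 69 members in both lists. Rpl22 had 20.7 and 16.7 at chr4:152325582-152325893, and Rps2 had 16.3 and 14.7 at chr17:24719820-24720214. Rpl19 was weak, with 6.42 and 6.47 at chr11:98026584-98026738. With these, 73 of 81 members had a replicated peak at an end or a listed start, against 45.1% of all protein-coding genes. Rpl17 had a peak inside the gene, 1392 bp from its lower end, with 15.8 in A and 11.6 in B, and has no listed start.

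The others were covered in a single list or in neither. Rpl26, which binds the p53 message, had an entry of A over its start with a fold enrichment of 14.6 and none in B. Rps4x, an X-linked gene of the small subunit, had an entry of A with 11.4 over its start and none in B. For Rpl4, a large-subunit protein that lines the exit tunnel, the only entry was in A, with 7.50, at 646 bp beyond its termination end, and its start was covered in neither list. Rpl10l, an intronless copy of Rpl10 used in the testis, had an entry of A with 9.55 inside the gene, which is 402 bp from an end. Rpl39l, another testis form, had no entry at its ends, and an entry of B lay 17855 bp away. Rpl32l had no entry in its locus in either list. Thus 78 of 81 members had an entry at an end or start in at least 1 list, the others being Rpl17, Rpl32l and Rpl39l. The share of all protein-coding genes by this wider count was not taken. By ends alone it was 47% in A and 44.8% in B.

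Of the 4 tissue-restricted paralogues listed, Rpl3l, Rpl10l and Rpl39l were found in the gene table by these symbols, and none of them had a replicated peak at its listed start. The replicated peak at the far end of Rpl3l, shared with Msrb1, was their only replicated gene-end peak.

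Start sites could be read for 61 members with an entry in the RefSeq promoter table. The others included Rpl3, Rpl7, Rpl8, Rpl17, Rpl21, Rpl23a, Rpl29, Rpl30, Rpl32, Rpl36, Rplp1, Rps14, Rps20, Rps27a and Rps29. A replicated peak lay within 1 kb of a listed start in 54 of 61 (88.5%), against 44.2% of the 17491 genes with a listed start. The 7 without it were Rpl3l, Rpl4, Rpl10l, Rpl26, Rpl32l, Rpl39l and Rps4x. A termination end had a replicated peak that was not at the start in 5 members, and only Rpl3l had that peak and none at the start. In Rpl13a, Rpl31, Rpl41 and Rps18 it came beside a start peak.

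The summits lay mostly just upstream of the start. The median distance was −58 bp in A and −63.5 bp in B, negative meaning upstream, against −59 bp and −55 bp over the 7738 genes with a replicated start peak. In each list 39 of 54 summits (72.2%) lay within 100 bp of the start, against 62.2% and 63.5% over all such genes. In A 51 of 54 summits were upstream (94.4%, against 80.3%), and in B 43 of 54 were (79.6%, against 79.4%). The summits of A and B were 16.5 bp apart at the median, against 21 bp over all such genes. Rps25, Rps26, Rpl13a, Rpl39 and Rps23 had their summits farthest upstream, from −271 bp (Rps23 in B) to −368 bp (Rps25 in A). Rpl27 had the summit farthest downstream, at 105 bp in A and 53 bp in B.

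**Figure D3:**
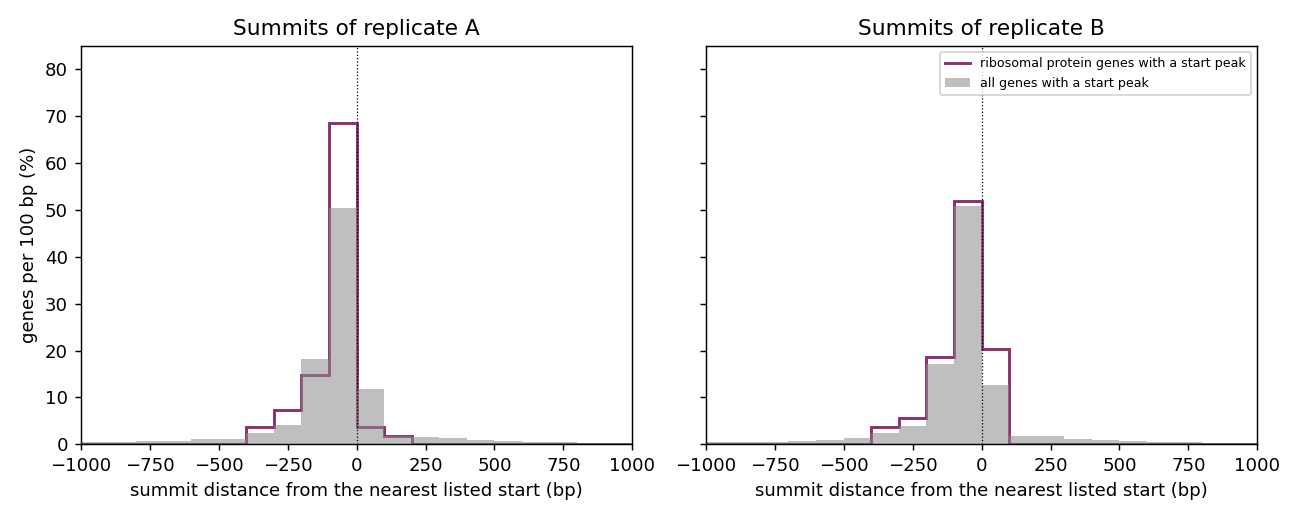
The percent of genes is plotted per 100 bp of distance between the peak summit and the nearest listed start, negative upstream, with A on the left and B on the right, for ribosomal protein genes (line, 54 genes) and all genes with a replicated start peak (grey, 7738 genes). Both sets are highest in the 100 bp upstream of the start, and no summit of a ribosomal protein gene lies farther upstream than −368 bp.

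The promoter entries of the 61 members run from 250 bases before to 50 after the first listed start. The ETS core, the sequence bound by ETS factors such as Gabpa, was present on either strand in 24 of 61 members (39.3%), against 11.9% of 17491 promoters and 21.1% of those of genes with a replicated start peak. In 22 of the 24, a match lay inside a replicated peak, while 54 of all 61 members had a replicated start peak. For the CCAAT box a match lay inside a peak in 17 of 19 members, and for the GC box in 30 of 35. Matches inside peaks were not counted over all promoters, so these counts show nothing particular to a pattern or to the members. Matches to the ETS core ranged from −214 to 35 around the start with a median of −62. Members that held the ETS core include Rpl15, Rps2, Rps6, Rps7, Rps10, Rps21, Rpl31, Rpl37, Rpl38 and Rplp2. For the other patterns, the share of all promoters and then that of genes with a replicated start peak follow the share of members. The YY1 core was found in 8 members (13.1%, against 6.37% and 7.68%). The CCAAT box was found in 19 (31.1%, against 39.0% and 42.2%). For the remaining patterns the direction depended on the background. The GC box, which Sp1 binds, was found in 35 (57.4%, against 46.3% and 69.3%) and the TATA box in 6 (9.84%, against 13.3% and 5.78%). The E-box, a site of Myc and related factors, was found in 5 (8.20%, against 7.90% and 10.8%) and the NRF1 core in 4 (6.56%, against 4.48% and 7.35%). On the sense strand alone, the GC box fell to 29.5% of members against 30.4% of all promoters, and the TATA box stood at 9.84% against 9.005%, both the other way round from either strand. No pattern contains another, and matches of different patterns shared bases only in Rpl10. A match is a description of letters and no factor was measured here.

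The median G+C content of these promoters was 57.0%, with 21 CpG at the median, against 56.3% and 13 over all promoters. Genes with a replicated start peak had 61.7% and 22. A first transcribed C followed by at least 4 pyrimidines, read at the first listed start, was present in 13 of 61 members (21.3%), against 2.17% of all promoters and 2.30% of those with a start peak. The 13 were Rpl14, Rpl15, Rpl28, Rpl32l, Rpl35, Rpl38, Rplp2, Rps6, Rps10, Rps15a, Rps18, Rps21 and Rps27. A listed start can differ from the start in use by a few bases, which changes this count. Of the 13, only Rpl32l had no replicated start peak, against 7 of all 61 members.

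Beyond the ends, the locus was the gene span with 20 kb on each side. A replicated peak lay in the locus of 75 of 81 members (92.6%), against 64.6% of all protein-coding genes. The number per locus was 2.23 ± 1.48 (SD over 81 genes) with a median of 2, against 1.55 ± 1.82 (SD over 21883 genes) and a median of 1. With entries of a single list the mean was 2.81 in A and 2.37 in B. Rplp2 had the most, with 9, then Rps28 with 6 and Rps7 with 5. A further 11 members had 4 each, among them Rps16, Rps27, Rpl10a and Rps2. No replicated peak lay in the loci of Rpl4, Rpl26, Rpl10l, Rpl32l, Rpl39l and Rps4x. The nearest was 67797 bp from an end of Rpl4, 35145 bp from Rpl26, 27564 bp from Rps4x and 774863 bp from Rpl10l.

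**Figure D4:**
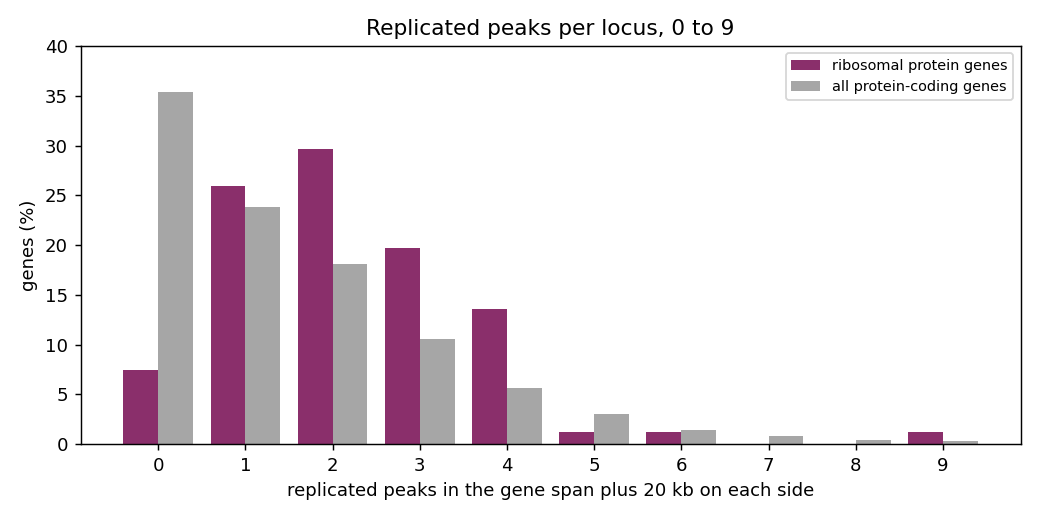
Bars give the percent of genes with 0 to 9 replicated peaks in the gene span plus 20 kb on each side, for the 81 ribosomal protein genes and for all protein-coding genes. Loci without a peak number 6 of 81 among ribosomal protein genes and make up 35.4% of all protein-coding genes, and 24 ribosomal protein genes have 2.

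The loci together held 175 distinct replicated peaks. Of these, 84 lay at an end or start of a member (48.0%) and 57 at an end of another protein-coding gene only. Away from all gene ends lay 33 outside the members and 1 inside a member, Rpl17. Median fold enrichment was 16.3 in A and 13.9 in B at the members' own ends and starts, and 14.4 and 12.2 at the ends of other genes. For the 33 away from ends it was 11.3 and 9.56. Per locus, peaks away from both ends of every protein-coding gene span averaged 0.481. Unlike the count above, this one takes in the start peaks inside the spans of Rps2, Rpl19, Rpl22 and Rps27l. The mean was 0.679 over all protein-coding genes and 0.318 over those no longer than the longest member. The best-ranked end peak of a member also lay at an end of another protein-coding gene in 16 of 69 cases (23.2%). Over all protein-coding genes with such a peak the share was 28.5%. These included Rab13 beside Rps27, Med22 beside Rpl7a, Ndufa7 beside Rps28, Card6 beside Rpl37 and Trappc4 beside Rps25. For these a peak cannot be given to a single gene. The loci of Rps2 and Rpl3l, 5898 bp apart, shared 3 replicated peaks.

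Small nucleolar RNA genes lay inside 29 members (35.8%), 58 in all, against 1.70% of all protein-coding genes. Rpl4 held 5, and Rpl7a and Rpl13a held 4 each. Of these 29 hosts 25 had a replicated gene-end peak, and Rpl4 and Rpl17 were among the others. The share was 85.2% over all 81 members and 41.9% over all protein-coding genes, and no difference was tested. Named pseudogenes of the family, which are mostly copies of spliced messages without the promoter, numbered 298 in the gene table. A replicated gene-end peak was found at 1 of them (0.336%), against 2.45% of all 10429 pseudogenes. It was Rpl21-ps7, at chr17:83288128-83288490, enriched 17.4-fold in A and 10.4-fold in B, and it lay at no end of a protein-coding gene. In the list of A 7 of the 298 had an entry there (2.35%, against 4.25% of all pseudogenes), and in that of B 1 did (0.336%, against 2.90%). Reads from near-identical copies can be left unplaced or placed on either copy, and the sources used here do not give how they were treated. Any effect of this on the pseudogenes or on members with many copies was not tested. Rpl31 and Rps12 had the most copies, with 23 named pseudogenes each.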

How the data were processed

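ATAC-seq peak lists of 2 samples of 1 group were used. The submitters' processing notes name MACS2, HOMER, bedtools, Picard, SAMtools and STAR 2.7.0 as tools, without their roles, and mm10 as the build. Any shift of reads for the Tn5 offset and the cleaning of the lists are not given in the sources used here. For each entry the authors deposited its position and summit offset, a score, the fold enrichment as a linear ratio over local background, and −log10 p and −log10 q values. The authors deposited 1 list per sample.

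With Python 3.11.15, numpy 2.4.6 and pandas 2.3.3, entries of A and B were joined where they overlapped by at least 1 bp, the entry of A giving the coordinates. The span of each gene was read from RefSeq's table for GRCm38.p6, which holds no strand or exons, so both ends of a gene were read (within 1 kb). Starts and strands came from RefSeq promoter entries, which 61 of 81 members matched by gene identifier. Replicated peaks were ranked by their fold enrichment in A and by that of the strongest overlapping entry of B. The mean of both ranks chose the best-ranked peak of a gene. Counting functions were tested on simulated data.

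With 1 group of 2 samples no test was run, and values are printed beside the same measure over all protein-coding genes. Genes are not replicates. The members and gene lists were chosen with earlier results of these data known. Genes named are the members without a replicated gene-end peak, the 10 best- and 5 worst-ranked members, those with most peaks per locus, Rpl10a, and those of the small lists by place in the ribosome. Other genes named, among them those of large differences between A and B, far summits, motif examples and neighbouring genes, were chosen after their values were seen. Some genes under this rule were left out of the text and of the plot of fold enrichment. Alternatives changed the overlap, the strength of entries, the windows and the list used.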

Additional observations from a re-analysis of the deposited data

How the results depend on the processing

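Counts of members with a replicated peak at a gene end, at a start or in the locus stayed within 1.5 times the reported count under every alternative run. The 10000 entries of highest −log10 q of each list left 46 members with a gene-end peak, and entries above the median −log10 q left 59. Both settings only remove entries, so these members lie among the 69 by construction. Under these settings, in this order, the share of all protein-coding genes fell to 23.2% and 31.1%, the mean per locus to 1.12 and 1.49, and the median per locus to 1 in both. The 10000 strongest entries also gave a median fold enrichment of 16.8 in B, 8 shared end peaks and 0 pseudogenes. Windows of 500 and 2500 bp moved the share of all genes to 39.0% and 46.3%, and 2500 bp gave 32 shared end peaks and 18 pseudogenes. The gene span alone held a mean of 0.864 and a median of 1 peak, and the span plus 50 kb held 3.88 and 3. With a single list in place of both, the share of all genes was 44.8% to 47.0%, the mean per locus 2.37 to 2.81, the median 2 to 3, pseudogenes 1 to 7 and members with a termination-end peak only 1 to 2. Without the tissue-restricted paralogues that last count was 0. The sense strand alone held the YY1 core in 4 members (6.56%, against 3.69% of all promoters), the GC box in 18 (29.5%, against 30.4%), the CCAAT box in 10 (16.4%, against 22.5%) and the ETS core in 16 (26.2%, against 6.57%). The GC box and, at 9.84% against 9.005%, the TATA box thus turned their direction against all promoters. Added after seeing the data were the first listed start only and the gene end or listed start, which gave 73 members. No paired analysis was possible because there is 1 group. Without read counts, a missing entry in B cannot be told apart from one under the caller's threshold.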

Other observations

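Some of the stronger replicated peaks in the loci of ribosomal protein genes lay away from both ends of every protein-coding gene. Ends of noncoding genes and pseudogenes were not read for this. Near Rpl14 a peak at chr9:120577163-120577447 was enriched 24.4-fold in A and 14.5-fold in B, above that at the gene's own start (17.9 and 13.9). Near Rps19 a peak at chr7:24904097-24904442 had 22.1 and 14.7, and near Rps15 a peak at chr10:80302197-80302829 had 18.7 and 17.7. Downstream of Rpl24 a pair of such peaks had 16.3 and 17.1, and 12.4 and 15.6. These were chosen after their values were seen, and which gene such a site belongs to was not tested.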
